A study of Mus musculus with 2 samples.

Results

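Endoglin (Eng), its partner receptors, their ligands and a secreted protein that binds such ligands were examined as a group of 10 genes. The data were a GATA4 ChIP-seq experiment on adult mouse liver. The 10 genes were Eng, Acvrl1, Bmpr2, Bmpr1a, Tgfbr1, Tgfbr2, Tgfbr3, Bmp2, Bmp6 and Bmper. A GATA4 occupied site (OS) was assigned to a gene when its midpoint lay in the gene body or within 50 kb of it, which gave 20 of the 4409 OS found by both peak callers. Of the 10 genes, 8 had at least 1 OS, and Bmpr1a and Tgfbr1 had none. The genes were themselves chosen by the positions of these peaks, so the number of OS at them is a description and was not tested.

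ChIP was performed with the GATA4 C-20 antibody on whole liver of C57BL/6 x Sv129 mice aged 2 to 3 months, and liver DNA that had not been immunoprecipitated (input) was the background for peak calling. This age is that of the sample labels, and the methods of the study give a slightly older range. Biological replicates, each pooled from the whole livers of more than one mouse, were merged into 1 set of peak lists, so no value per replicate can be given. Each peak has a position and a number in its list, but every deposited score is 1000, and the reads were not analysed here, so the depth behind a peak is unknown. No treatment or genotype was compared. Whole liver mixes hepatocytes with sinusoidal endothelial, stellate and blood cells, and the peak lists do not say in which of these cells a site was occupied. The peak files hold no expression values, and the tissue label could therefore not be checked against marker genes.

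TGF-beta and bone morphogenetic protein (BMP) ligands bring together type II and type I receptor kinases, which phosphorylate Smad proteins that enter the nucleus and act on target genes. Endoglin and betaglycan (Tgfbr3) are co-receptors without kinase activity that present ligand to these complexes. In the liver, BMP2 and BMP6 made by sinusoidal endothelial cells drive hepcidin transcription in hepatocytes, and loss of endoglin or of ALK1 (Acvrl1) in humans causes hereditary haemorrhagic telangiectasia, in which liver vessels can be affected. GATA4 is a zinc finger factor that binds WGATAR, where W is A or T and R is A or G.

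The sequences below are those of the mm9 plus strand, 5′ to 3′, and they show how differently the members' sites are built. The first group is the OS with the lowest list number that holds WGATAR at each gene that has one, with WGATAR (or its reverse complement) in capitals. Positions of sites longer than 300 bp are the central 300 bp.
Eng, OS 201, chr2:32517259-32517558: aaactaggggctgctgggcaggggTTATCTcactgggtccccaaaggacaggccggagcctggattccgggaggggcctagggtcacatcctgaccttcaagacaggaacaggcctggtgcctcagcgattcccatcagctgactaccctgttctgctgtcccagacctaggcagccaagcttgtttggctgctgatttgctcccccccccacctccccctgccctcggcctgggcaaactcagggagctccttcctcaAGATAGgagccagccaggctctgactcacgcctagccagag
Bmpr2, OS 1750, chr1:59861327-59861494: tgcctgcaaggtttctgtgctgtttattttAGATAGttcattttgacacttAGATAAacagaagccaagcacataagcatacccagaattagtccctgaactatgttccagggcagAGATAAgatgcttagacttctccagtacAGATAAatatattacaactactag
Tgfbr3, OS 625, chr5:107701739-107702008: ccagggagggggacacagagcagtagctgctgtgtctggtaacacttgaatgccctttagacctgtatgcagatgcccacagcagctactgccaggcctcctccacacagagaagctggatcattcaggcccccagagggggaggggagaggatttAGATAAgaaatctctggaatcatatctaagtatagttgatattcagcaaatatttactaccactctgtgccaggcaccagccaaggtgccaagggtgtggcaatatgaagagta
Bmp2, OS 943, chr2:133417666-133417870: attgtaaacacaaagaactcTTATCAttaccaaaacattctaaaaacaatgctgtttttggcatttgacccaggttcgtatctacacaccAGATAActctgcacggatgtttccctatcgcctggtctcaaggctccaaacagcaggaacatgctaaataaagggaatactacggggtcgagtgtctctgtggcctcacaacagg
Bmp6, OS 3431, chr13:38442079-38442378: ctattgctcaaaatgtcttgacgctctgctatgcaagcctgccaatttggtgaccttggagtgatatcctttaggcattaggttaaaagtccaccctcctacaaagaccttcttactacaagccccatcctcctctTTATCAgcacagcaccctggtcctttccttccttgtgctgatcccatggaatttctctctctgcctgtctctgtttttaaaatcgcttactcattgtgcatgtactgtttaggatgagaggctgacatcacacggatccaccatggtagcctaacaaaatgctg
Bmper, OS 20, chr9:23257710-23258001: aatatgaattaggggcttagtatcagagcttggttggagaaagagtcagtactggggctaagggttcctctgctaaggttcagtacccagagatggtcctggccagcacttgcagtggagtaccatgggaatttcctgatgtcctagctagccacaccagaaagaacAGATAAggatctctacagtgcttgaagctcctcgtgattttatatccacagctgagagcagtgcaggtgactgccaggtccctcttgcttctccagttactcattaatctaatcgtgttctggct

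The second group holds sites without WGATAR, chosen after their values were seen except for the Tgfbr3 site, which lies at the gene start. Capitals mark GATA on either strand at Tgfbr2 and ETS words (defined below) at Eng, and the Acvrl1 and Tgfbr3 sequences hold neither. Of the Tgfbr3 site, only the bases upstream of the first exon are given.
Tgfbr2, OS 886, chr9:116023701-116023912: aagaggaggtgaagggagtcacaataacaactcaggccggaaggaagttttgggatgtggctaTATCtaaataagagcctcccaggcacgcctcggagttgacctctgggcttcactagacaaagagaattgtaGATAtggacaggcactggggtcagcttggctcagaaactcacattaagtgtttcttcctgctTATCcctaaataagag
Eng, OS 1895, chr2:32493579-32493757: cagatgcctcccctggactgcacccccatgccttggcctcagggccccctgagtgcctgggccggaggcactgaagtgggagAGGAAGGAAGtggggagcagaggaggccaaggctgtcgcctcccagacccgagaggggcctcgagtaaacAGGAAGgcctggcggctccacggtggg
Acvrl1, OS 2823, chr15:100970401-100970556: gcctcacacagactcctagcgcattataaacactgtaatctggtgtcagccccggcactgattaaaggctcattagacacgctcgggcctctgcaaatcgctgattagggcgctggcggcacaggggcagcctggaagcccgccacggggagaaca
Tgfbr3, OS 912, chr5:107718649-107718775: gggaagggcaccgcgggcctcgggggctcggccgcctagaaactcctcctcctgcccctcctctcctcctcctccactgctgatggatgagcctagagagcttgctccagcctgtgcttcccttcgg

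Among all 22380 protein-coding genes of GENCODE M1, 6194 genes (27.7%) had 1 or more OS within the same reach, beside 8 of the 10 members. The members with 2 or more OS were Eng, Bmpr2, Tgfbr3 and Bmp6, 4 of 10 against 9.15% of all genes, and those with 3 or more were Eng, Tgfbr3 and Bmp6, 3 of 10 against 3.24%. Inside the body, 7 of 10 members had an OS against 7.67% of all genes. Because peak positions picked the genes, nothing is read from these differences. The members were also long genes, with a median body of 91.8 kb against 15.4 kb for all genes. The part of gene length in these counts was not tested. Bmper (262.1 kb), Tgfbr3 (183.1 kb) and Bmp6 (155.2 kb) were the longest, and Bmp2 (10.7 kb) and Acvrl1 (16.8 kb) the shortest.

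**Figure D1:**
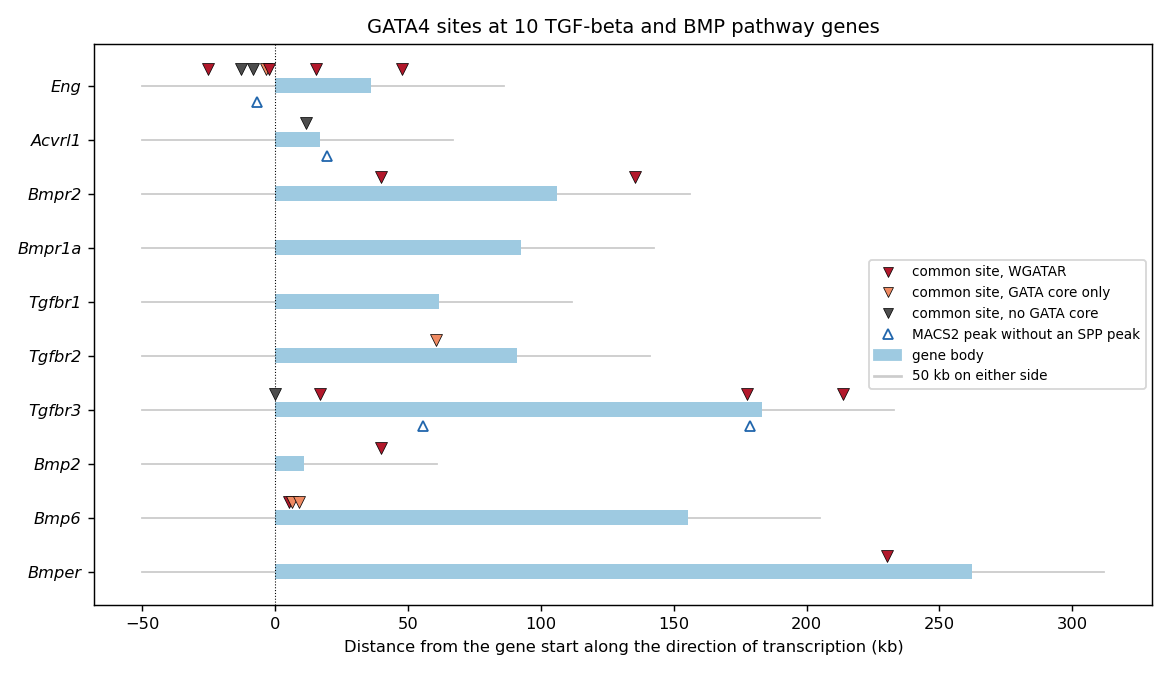
Positions of GATA4 peaks at the 10 genes, with the distance from the gene start in kb along the direction of transcription on the x axis and 1 gene per row. Filled triangles are common OS coloured by the GATA words they hold, open triangles are MACS2 peaks without an SPP peak, and the bars are gene bodies: 7 OS fall at Eng, 5 of them upstream of its start, and the 3 OS of Bmp6 sit close together after its start.

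Eng encodes the endoglin co-receptor of endothelial cells and lies on the plus strand at chr2:32502115-32538189. It had 7 OS, a number reached or passed by 22 of the 22380 genes (0.0983%), among them its neighbour Ak1, which shares these sites, Smad6 with 8 OS and Zfpm1, the gene of the GATA cofactor FOG1, with 7. Of the 7 sites, 5 lay upstream of the gene, 1 lay within it and 1 beyond its end. The upstream sites were at 25270, 12818, 8447, 3583 and 2229 bp before the start. The intragenic site was OS 201, at 15293 bp after the start in intron 2 of the longest coding transcript, which has 14 exons. Distances from a member's start are from the outermost start of its gene record, and this site lay 11478 bp upstream of another Eng start. It was the widest of the 20 sites (486 bp), and it also stood first among the Eng sites in the MACS2 list, as peak 69.

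The next sites of Eng stood far apart in the list. OS 898, 1895 and 1952 met MACS2 peaks 754, 1456 and 804, whereas OS 3750, 4123 and 4357 met peaks 4654, 4074 and 4256. OS 898 lay 433 bp upstream of a start of Ak1, the gene of an adenylate kinase, and OS 4357 lay in the last of 7 exons of Ak1, outside its coding sequence. OS 1895, 4123 and 3750 lay inside the Ak1 gene record but outside its longest coding transcript, and their nearest coding start was that of Eng. OS 1952 lay 11586 bp beyond the end of Eng, in intron 2 of Fpgs and 70 bp upstream of a start of that gene, which encodes folylpolyglutamate synthase. Steps between neighbouring midpoints at Eng ran from 1354 bp, between OS 4123 and 3750, to 32367 bp, between OS 201 and 1952. The next OS outside the reach was 227.9 kb away from the gene body.

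The Eng sites differed in sequence as well as in place. OS 201 held 3 WGATAR words at -123, 112 and 201 bp from its midpoint, so the centre of this site had none within 100 bp. OS 898, 3750 and 1952 each held 1 WGATAR, at 20, -15 and 3 bp from the midpoint. OS 4123 held only AGATAT, at 20 bp, and OS 4357 and 1895 held no GATA within the site. OS 4357 is only 97 bp wide, and the nearest GATA was 51 bp and the nearest WGATAR 87 bp from its midpoint. In OS 1895, AGGAAG occurred 3 times, and 2 of the copies overlapped at the midpoint, as the capitals above show. OS 201 held 6 copies of the SMAD word CAGACA (on the minus strand), of which 5 followed each other at steps of 4 bp in a simple repeat outside the stretch printed above.

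Tgfbr3, the gene of the co-receptor betaglycan, lies on the minus strand at chr5:107535589-107718648 and had 4 OS. OS 912 covered the gene start itself, with its midpoint 7 bp upstream, and was the only site of the 20 within 1 kb of a member's start. OS 625 lay 16775 bp downstream of the start in intron 1, OS 2597 lay 177581 bp downstream in intron 16 of a transcript with 17 exons, and OS 3585 lay 30711 bp beyond the gene's end. OS 2597 and 3585 were nearer to another Tgfbr3 start, 20875 and 57064 bp downstream of it. The start site had a GC content of 70.5% in the central 200 bp, the highest of the 20, and held no GATA, no ETS word and no E-box, but 1 SMAD word (GGCGCC). The other 3 each held 1 WGATAR, at 24, -40 and 21 bp from the midpoint. The start site and the intron 1 site stood at 492 and 264 in the MACS2 list, and the far site beyond the gene at 5190, the highest number of the 20.

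Among the type I receptors of the group (Acvrl1, Bmpr1a and Tgfbr1), only Acvrl1 had a site. Acvrl1 encodes ALK1, the endothelial BMP receptor, and lies at chr15:100958953-100975767. OS 2823 lay 11525 bp after the start in intron 9 of a transcript with 11 exons, and 2447 bp after another Acvrl1 start. The 156 bp of the site held none of the words searched, the central 200 bp, which reach beyond its ends, held 1 E-box, and the nearest GATA was 203 bp and the nearest WGATAR 359 bp from the midpoint. The same site lay within reach of Acvr1b, an activin receptor gene downstream. Bmpr1a (ALK3, chr14:35223920-35316527) and Tgfbr1 (ALK5, chr4:47366094-47427803) had no peak of either caller within 50 kb. The nearest common OS lay 84.8 kb from the body of Bmpr1a, near Ldb3, and 59.5 kb from that of Tgfbr1, near Alg2. Lack of a listed peak here says only that none passed the authors' thresholds.

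Both type II receptor genes had an OS in an intron. Bmpr2, whose product pairs with the BMP type I receptors, lies at chr1:59821481-59927703, and OS 1750 lay 39929 bp after its start in intron 1. This site held 4 WGATAR words, more than any other member site, at -51, -30, 35 and 63 bp, and at 38% it had the lowest GC content. OS 2533 lay 29011 bp beyond the end of Bmpr2 and held 2 WGATAR, but its nearest coding start was that of Fam117b, 13136 bp away. Tgfbr2, the TGF-beta type II receptor gene, lies on the minus strand at chr9:115993415-116084383, and OS 886 lay 60577 bp after its start in intron 3. It held 3 GATA cores in the word AGATAT, present at both -41 and 30 bp, and the word GGATAA at 92 bp, none of which is WGATAR. It stood at 482 in the MACS2 list.

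The genes of secreted proteins, the ligand genes Bmp2 and Bmp6 and the gene Bmper, differed in arrangement. Bmp2 lies at chr2:133377895-133388621 and had 1 OS, OS 943, at 29147 bp beyond its end, with 2 WGATAR words at -80 and -10 bp. Bmp6 lies at chr13:38436995-38592183 and had 3 OS, all in intron 2 of the longest coding transcript (8 exons), at 5233, 6200 and 8926 bp after the start. The steps between them were 967 and 2726 bp, and 967 bp was the shortest step among the member sites. Only OS 3431, the first of the 3 along the gene, held WGATAR. OS 2963 held AGATAC, and OS 1702 held GGATAG and 2 copies of TGATAT that overlap as a palindrome. Bmper encodes a secreted protein that binds BMPs and lies at chr9:23027520-23289646. Its OS 20, in intron 13 of 15 exons and 230335 bp after the start, had the lowest list number of the 20, and its MACS2 peak stood at 116. It held 1 WGATAR at 24 bp and had no other OS within 417862 bp.

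The OS farthest from a member's body but inside the reach were at 30711 bp (Tgfbr3), 29147 bp (Bmp2), 29011 bp (Bmpr2) and 25270 bp (Eng). The first outside it were 3 OS at 54.4, 54.6 and 56.5 kb from Bmp2 and 1 OS at 59.5 kb from Tgfbr1.

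Every one of the 20 sites is also in the SPP list, whose coordinates the common list keeps, and meets a MACS2 peak. Both follow from how the authors made the common list. The number of a site in the common list is the only order that the file gives, and what it follows is not stated there. By the study's methods, SPP peaks were sorted by signal value during the reproducibility analysis. The median number was 1923.5 for the 20 sites and 2205 for all 4409 OS. The first 1102 places of the list held 7 of the 20 sites (35%, Wilson 95% interval 18.1 to 56.7%) and 25.0% of all OS. Those 7 were 2 sites each of Eng and Tgfbr3 and the single sites of Bmper, Tgfbr2 and Bmp2. The share of all OS lies inside this interval. By the MACS2 peaks met, 50% of the 20 sites stood in the first 25% of the MACS2 list (29.9 to 70.1%). No share over all OS is given beside it. The median number of the MACS2 peak met was 1596 for the 20 sites and 2195 for all OS. This difference was not tested, and nothing is read from it. These intervals cover counting error over sites only.

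**Figure D2:**
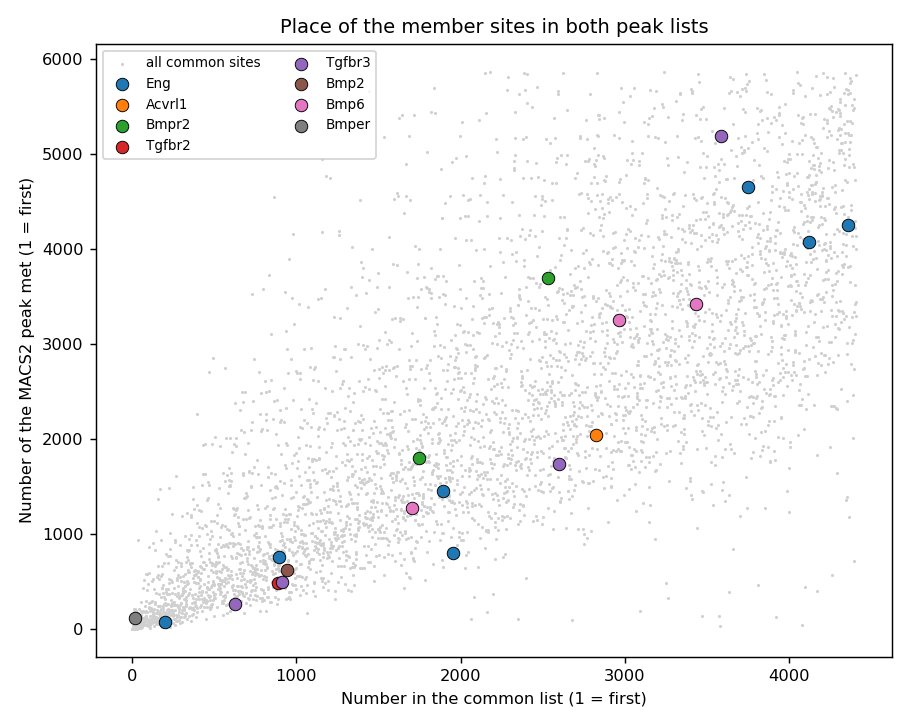
Number of each OS in the common list (x axis) against the number of the MACS2 peak that it meets (y axis), with all 4409 OS in grey and the 20 member sites in colour by gene. The OS of Bmper, at 20 and 116, and OS 201 of Eng, at 201 and 69, sit near the origin, whereas Eng OS 3750, 4123 and 4357 lie at the far end.

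The width of a site was 320 bp, the commonest width of the list, at 5 of the 20 sites (25%), against 25.6% of all OS, and these 5 stood at numbers from 2533 to 4123. Median width was 208.5 bp at the members and 190 bp over all OS. The median distance to another OS was 17152 bp, against 55555 bp over all OS. An OS had the coding start of its own member as the nearest one at 16 of the 20 sites. Of all OS, 51.9% had their midpoint in a protein-coding gene body, beside 15 of the 20 (75%, 53.1 to 88.8%), of which 10 lay in the body of a member, all in introns. The 20 sites were kept because they lie in or near genes that peak positions had picked. The body share, the distance to another OS and the nearest start follow in part from that rule, and nothing is read from them.

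WGATAR was counted as the word AGATAA, the word AGATAG, the word TGATAA or the word TGATAG on either strand within the site. Of the 20 sites, 12 held at least 1 (60%, 38.7 to 78.1%), against 82.9% of all OS (81.8 to 84.0%), a share above the members' interval. At least 2 WGATAR were present at 4 of the 20 (20%, 8.07 to 41.6%) and at 34.7% of all OS. The core GATA was present at 16 of the 20 (80%, 58.4 to 91.9%), against 93.4%. Taking the whole MACS2 peak, 17 of the 20 held WGATAR (85%, 64.0 to 94.8%), against 92.2%. Since each gene's sites share a locus and the sites were not tested against others, no more is read from these shares.

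The 12 sites with WGATAR held 19 words, 10 of them AGATAA (52.6%, against 44.6% of the 5734 words in all OS), 5 TGATAA, 2 AGATAG and 2 TGATAG. At 11 of the 12, a word lay within 50 bp of the midpoint, the exception being OS 201 of Eng. Windows of the same width moved by 5000 bp gave an uneven background for so few sites, as 10 of 20 held WGATAR on the right and 1 of 20 on the left, against 31.9% and 31.4% over all OS.

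Of the 8 sites without WGATAR, 4 had a GATA core (Eng OS 4123, Tgfbr2 OS 886 and Bmp6 OS 2963 and 1702) and 4 had none (Eng OS 4357 and 1895, Acvrl1 OS 2823 and Tgfbr3 OS 912). GC content was taken in the central 200 bp, whereas the core was sought in the whole site. The 4 without a core had a GC content of 58.5 to 70.5% with a median of 63.5%. The 16 with a core had 38 to 66% with a median of 49.25%. Over all OS, the medians were 53.5% for the 289 without a core and 49% for the 4120 with one. GC content was high at these 4 member sites, and its part in the absence of the word was not tested.

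**Figure D3:**
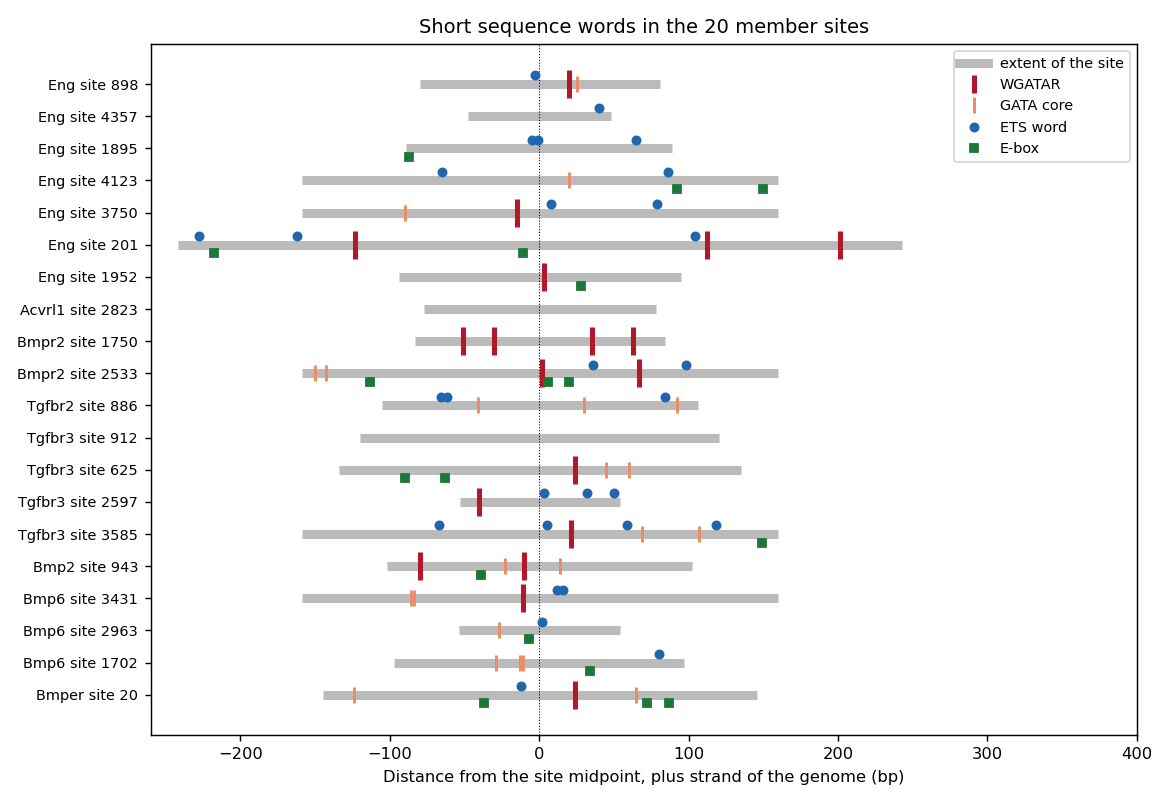
Words found in each of the 20 sites, with the distance from the site's midpoint in bp on the x axis and 1 site per row. Long red ticks are WGATAR, short orange ticks other GATA cores, blue dots ETS words and green squares E-boxes: 4 rows carry no GATA tick, and Bmpr2 site 1750 carries 4 long ticks.

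Words of other factors were counted in the central 200 bp of each site on both strands. ETS words (the word AGGAAG, the word AGGAAA, the word CGGAAG or the word CGGAAA) are cores bound by the ETS family, which is active in endothelium, and were present at 13 of the 20 sites (65%, 43.3 to 81.9%), against 68.7% of all OS. An E-box (CANNTG), bound by basic helix-loop-helix factors, was present at 11 sites (55%, 34.2 to 74.2%), against 61.8%. CTG followed by 7 to 9 bases and GATA, the spacing of the composite E-box and GATA element, was present at 4 sites (20%), against 16.9%, and in the whole sites it was found at 5, namely Eng OS 898 and 201, Bmpr2 OS 1750, Bmp2 OS 943 and Bmp6 OS 1702. Such a word can share its GATA with a WGATAR and can contain part of an E-box. SMAD words (the word GGCGCC or the word CAGACA) were present at 4 sites (20%), against 21.7%. For each of these words, the share over all OS lay inside the members' interval.

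**Figure D4:**
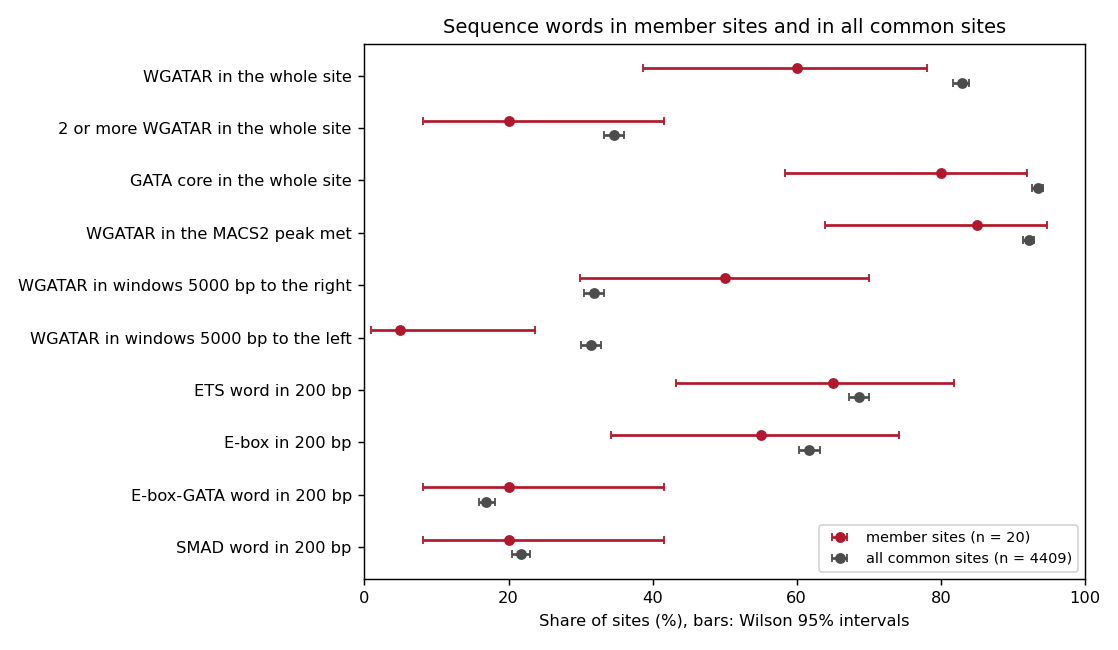
Share of sites that hold each word, in % on the x axis with Wilson 95% intervals as bars, for the 20 member sites (red) and all 4409 OS (dark grey). The WGATAR share over all OS, 82.9%, lies to the right of the members' interval of 38.7 to 78.1%, and the ETS, E-box and SMAD shares over all OS lie within theirs.

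The promoters themselves, read from RefSeq as 250 bp before to 50 bp after each start (build GRCm38.p6), held WGATAR in 0 of 8 promoters of 7 members, against 29.8% of the 32851 promoters in the table. Acvrl1, Tgfbr3 and Bmp2 were not matched. No match says only that these letters are not in this window.

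Beyond the members, 101 other genes of the pathway were listed by role, with earlier results of these data in view, and 35 of them (34.7%, 26.1 to 44.3%) had an OS within 50 kb, against 27.7% of all protein-coding genes. By role, an OS was present at 8 of 32 ligand genes, 2 of 7 receptor genes, 5 of 14 genes of co-receptors and latency proteins, 6 of 18 inhibitor genes, 9 of 18 genes of Smads and their modifiers and 5 of 12 common target genes. The share was 50% for Smads and their modifiers (29.0 to 71.0%) and 25% for ligands (13.3 to 42.1%). Genes of Smads and their modifiers were long, with a median body of 58.5 kb against 15.4 kb for all genes, and 6 of the 9 with an OS had the nearest coding start to one. The 7 receptor genes had a longer median body, 89.2 kb, and 2 of them had an OS. The part of gene length in these shares was not tested. Of the 101 genes, 15 had 2 or more OS, against 9.15% of all protein-coding genes, and nothing is read from this difference.

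Smad6, an inhibitory Smad, had 8 OS, all with WGATAR, the first of them at number 314. Acvr1 (ALK2), a type I receptor that answers to BMP6, had 2 OS, both in its body and both with WGATAR, and Acvr1b was reached only by the Acvrl1 site. Bmp10, whose product binds ALK1 and endoglin, had 4 OS, all with WGATAR and the closest 260 bp upstream of its start, and the first stood at number 3129. The start of Bmp10 was the nearest coding start for 3 of the 4. Gdf2, another gene of the ligand list, had no OS. Hfe2, the gene of the BMP co-receptor hemojuvelin, had 3 OS, but the nearest coding start of none of them was its own. Among BMP target genes, Id3 had 3 OS with the first at 478, and Atoh8 had 3 with the first at 198. At each of these genes, 2 of the 3 had the gene's own start as the nearest coding start. All 3 OS of Id3 and 2 of the 3 of Atoh8 held WGATAR. Of the 12 common target genes, 5 had an OS, and Id1, Id4, Hamp (hepcidin), Hamp2, Hey1, Hey2 and Ctgf had none. Gdf9 had 3 OS in reach, none with its own start as the nearest coding start, and Fstl1 had 4, of which 1 did. Gdf15, Nodal, Lrrc32, Sost, Smurf1, Smurf2 and Tgfbi had 2 each. Neither OS of Gdf15 had its own start nearest, and only 1 each did at Nodal, Lrrc32, Smurf2 and Tgfbi.

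**Figure D5:**
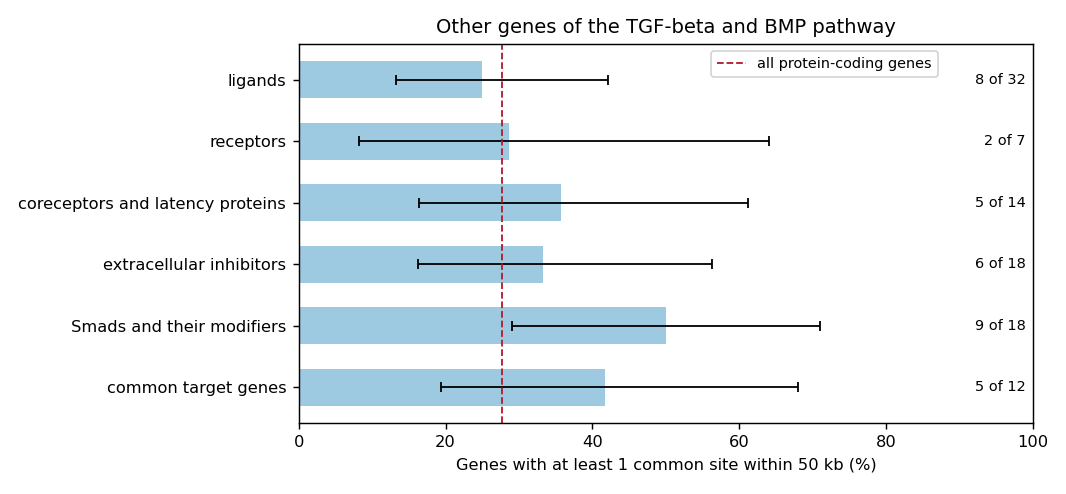
Share of the genes in each pathway list with at least 1 common OS within 50 kb, in % on the x axis with Wilson 95% intervals as bars, and the counts at the right. The dashed line is the 27.7% of all protein-coding genes, which lies inside every interval except that of Smads and their modifiers, 29.0 to 71.0%. The median body was 58.5 kb in that list and 89.2 kb in the receptor list.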

How the data were processed

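GATA4 ChIP and input DNA of whole mouse liver were analysed as peak lists, and the input entered only through the authors' peak calls. Before depositing the files, the authors aligned reads to mm9 with Bowtie 0.12.7, kept unique reads, ran MACS2 2.0.10 and a modified SPP as peak callers, set thresholds by reproducibility between replicates (IDR), and intersected the lists with bedtools 2.16.1, keeping the SPP coordinates. Versions are from the submitters' processing notes and the study's methods. The lists hold 4409 common, 4811 SPP and 5867 MACS2 peaks. The deposited score is 1000 at every peak, so the list number was used as the order. Libraries were amplified by 18 cycles and cut to 250 to 450 bp.

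Genes were taken from GENCODE M1 (22380 protein-coding records) on NCBI Build 37, the build of the files, whereas the authors used RefGene. All peaks end inside chromosomes of that reference. Words were matched exactly with Python 3.11.15, pysam 0.24.0, numpy 2.4.6, pandas 2.3.3, scipy 1.17.1 and samtools 1.23.1, and matplotlib 3.10.9 drew the plots. Intervals are Wilson intervals at 95%. Scripts were first tested on simulated data. No hypothesis test was made, because the lists merge the biological replicates, with no value for each, and peak positions chose the genes. The members and lists were chosen with earlier results of these data known.

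All members and their sites are named, with the genes that hold a site or have the nearest start, and pathway genes with 2 or more OS. Pathway genes without an OS were named only among the common targets, and Gdf2 among the ligands, after their values were seen. Smad6 and the other genes with 7 or more OS were counted over the whole annotation, and Ak1 and Zfpm1 were picked out after their values were seen. Sequences follow the rule given with them. RefSeq promoters are of another build, so their coordinates were not used. Alternatives covered the reach, the list, the gene model, the stretch scanned, shifted windows and the overlap.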

Additional observations from a re-analysis of the deposited data

How the results depend on the processing

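Of 59 alternatives over 12 results, 43 kept the result and 16 did not. A count, or the share of all protein-coding genes with a site, was kept when it moved by less than 1.5 times. A share of member sites was kept when it stayed inside its interval. The 20 member sites became 10 with gene bodies only and 11 with the first 2204 places of the common list, and 14 with a reach of 10 kb, 27 with 100 kb and 24 in the MACS2 list. The 35 other pathway genes became 19 with a reach of 10 kb, 12 with gene bodies only, 23 with those places and 21 when a site counted only for the nearest coding start. The share of all genes with a site became 13.7%, 7.67%, 16.0% and 12.3% under those same settings. The WGATAR share of 60% rose to 87.5% over the 24 MACS2 peaks, which are wider. For the MACS2 peaks met by the 20 sites it was 85%, against 92.2% over all OS. In windows 5000 bp away it was 50% to the right and 5% to the left. All 20 sites met a MACS2 peak by at least 1 bp, which the making of the common list fixed in advance. With a reciprocal overlap of 50%, 20% of them did so, since MACS2 peaks were wider (median 618 bp against 190 bp). In 500 bp around the midpoint, the shares at the 20 sites were 95% for ETS words, 90% for E-boxes and 45% for SMAD words. In 200 bp they were 65%, 55% and 20%, against 68.7%, 61.8% and 21.7% of all OS. A longer stretch holds more of any short word, and no share over all OS in 500 bp is set beside these. Nothing is read from the 500 bp values as enrichment. The lists give no depth or signal per peak, so the strength of a site is unknown.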

Other observations

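MACS2 alone listed 4 more peaks at the members. One lay 6818 bp upstream of Eng (peak 4425) and held 1 WGATAR. One lay 19586 bp after the start of Acvrl1, beyond its end (peak 3057), and held 2. The other two lay inside Tgfbr3, at 178678 bp (peak 4076, 2 WGATAR) and 55643 bp (peak 5282, 3 WGATAR) after its start.

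From 50 to 100 kb away lay 7 further OS, of which 4 surrounded Bmp2. OS 359, 621 and 638, at 56.5, 54.6 and 54.4 kb, held 1, 3 and 1 WGATAR and all had Bmp2 as the nearest coding start, and they stood earlier in the list than OS 943, the site within reach. The fourth, OS 2964 at 84.5 kb, held none. The others were OS 2161 at Bmpr1a, OS 2130 at Tgfbr1 and OS 1887, 79.7 kb downstream of Bmp6.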
